A study of Mus musculus with 33 samples.

Results

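Osteoclasts, the cells that resorb bone, are made and driven by a small group of genes, and 9 of them were followed here through the early development of the mouse frontal bone region. They were taken from the count table by gene symbol: the ligands Tnfsf11 and Csf1, the receptor Tnfrsf11a, the decoy receptor Tnfrsf11b, the fusion genes Dcstamp and Ocstamp, the effector genes Ctsk and Acp5, and the calcitonin receptor gene Calcr. All 9 were found among 55401 genes in the table, and 7 of them were among the 20073 genes that passed a filter on low counts. The question set for them is whether osteoclast signals, and osteoclasts, are present by E14.5.

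The samples are polyA RNA of the frontal bone of the calvaria, the flat skull bone over the forebrain that forms directly from mesenchyme. There were 11 stages with 3 libraries each, in days of embryonic development: the early ones were E8.5 and E9, next came E9.5 with E10, then E10.5 with E11, then E11.5 with E12, and the last were E12.5, E13.5 and E14.5. The labels give a stage for each library and name no genotype, strain, treatment or pooling. Nothing states that the libraries of 1 stage stem from different embryos, so the spread between them may be technical. Stages are given by their labels throughout.

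RANK ligand, encoded by Tnfsf11, is made by osteoblast-lineage and other stromal cells and binds its receptor RANK, encoded by Tnfrsf11a, on precursors of the macrophage lineage. Osteoprotegerin, encoded by Tnfrsf11b, is a secreted decoy that binds RANK ligand and keeps it from RANK. CSF1 keeps those precursors alive through its receptor CSF1R. Precursors that receive both signals turn on Nfatc1, fuse through the membrane proteins DC-STAMP and OC-STAMP, and make the collagen-cleaving protease cathepsin K (Ctsk) and the tartrate-resistant acid phosphatase (Acp5). The calcitonin receptor (Calcr) marks mature osteoclasts and is also made in the nervous system.

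Levels are given as CPM (reads of a gene divided by one-millionth of the library's TMM-corrected total), and differences are log2 fold changes with approximate standard errors from edgeR's quasi-likelihood test over all 33 libraries. The threshold was an adjusted p of 0.05 (Benjamini-Hochberg, over all genes tested). Library totals ran from 14516518 to 19964404 counts. At those totals the genes at the bottom of the scale rest on few reads, and their counts are printed. In these bulk libraries, fewer cells of a type and less RNA per cell cannot be told apart.

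Several stages stood apart from their neighbours. The E9.5 libraries held 229.8 ± 4.8 CPM of 8 summed periosteal and tendon fibroblast markers (SD, n = 3), a value above both E9 (23.6 ± 2.9 CPM) and E10 (42.8 ± 1.9 CPM). Of these 8, 4 were called higher at E9.5 than at E9, 1 lower and 3 did not pass. Among all genes, 11.1% were higher and 11.7% lower at that step. The E11.5 libraries held 29.4 ± 2.3 CPM of 6 summed erythroid markers, below both E11 (84.1 ± 4.5 CPM) and E12 (111.8 ± 8.6 CPM). Libraries of E12 varied most, with 9 summed osteoblast markers between 291.6 and 652.3 CPM. The E14.5 libraries held 590.3 ± 8.7 CPM of 8 summed neuron markers, below E13.5 (1954 ± 71 CPM) and E12.5 (1647 ± 2.1 CPM). Fibroblast markers there summed to 1950 ± 99 CPM, against 744.6 ± 60 CPM at E13.5. Of the 9 osteoblast markers, Ibsp and Dmp1 were at 0 counts at E9 and E9.5. All 9 summed to 64.9 ± 3.8 CPM at E8.5, 86.7 ± 2.5 CPM at E9 and 135.6 ± 6.2 CPM at E9.5. Set beside the tissue label, the 8 summed neuron markers reached 2804 ± 33 CPM at E11.5, where the osteoblast markers summed to 491.7 ± 15 CPM. Steps into and out of these stages are given below with the values that moved beside them.

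By E14.5, the last stage, transcripts of both ligands, the receptor and the decoy were present, and Ctsk was at its highest, while the fusion genes Dcstamp and Ocstamp had 2 and 4 counts over the 3 libraries and were not tested. Acp5 and Calcr were below their E8.5 levels. Of the 7 tested genes, 5 were higher than at E8.5 and 2 were lower. Over all genes tested, 41.1% were higher and 33.5% lower in this comparison, so a change as such does not set the group apart. Against E12.5, 5 genes were higher at E14.5, 1 was lower and 1 did not pass, where 25.3% of all genes were higher and 28.6% lower. The same 5 were higher in both comparisons: Tnfsf11, Tnfrsf11a, Tnfrsf11b, Csf1 and Ctsk. These counts describe genes that cleared the filter, and Tnfsf11 reached its level of 0.585 CPM, here of uncorrected library totals, in only 5 libraries, of E11, E11.5, E13.5 and E14.5. The 2 comparisons share the E14.5 libraries. No test here separates osteoclasts from other cells that express these genes.

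**Figure D1:**
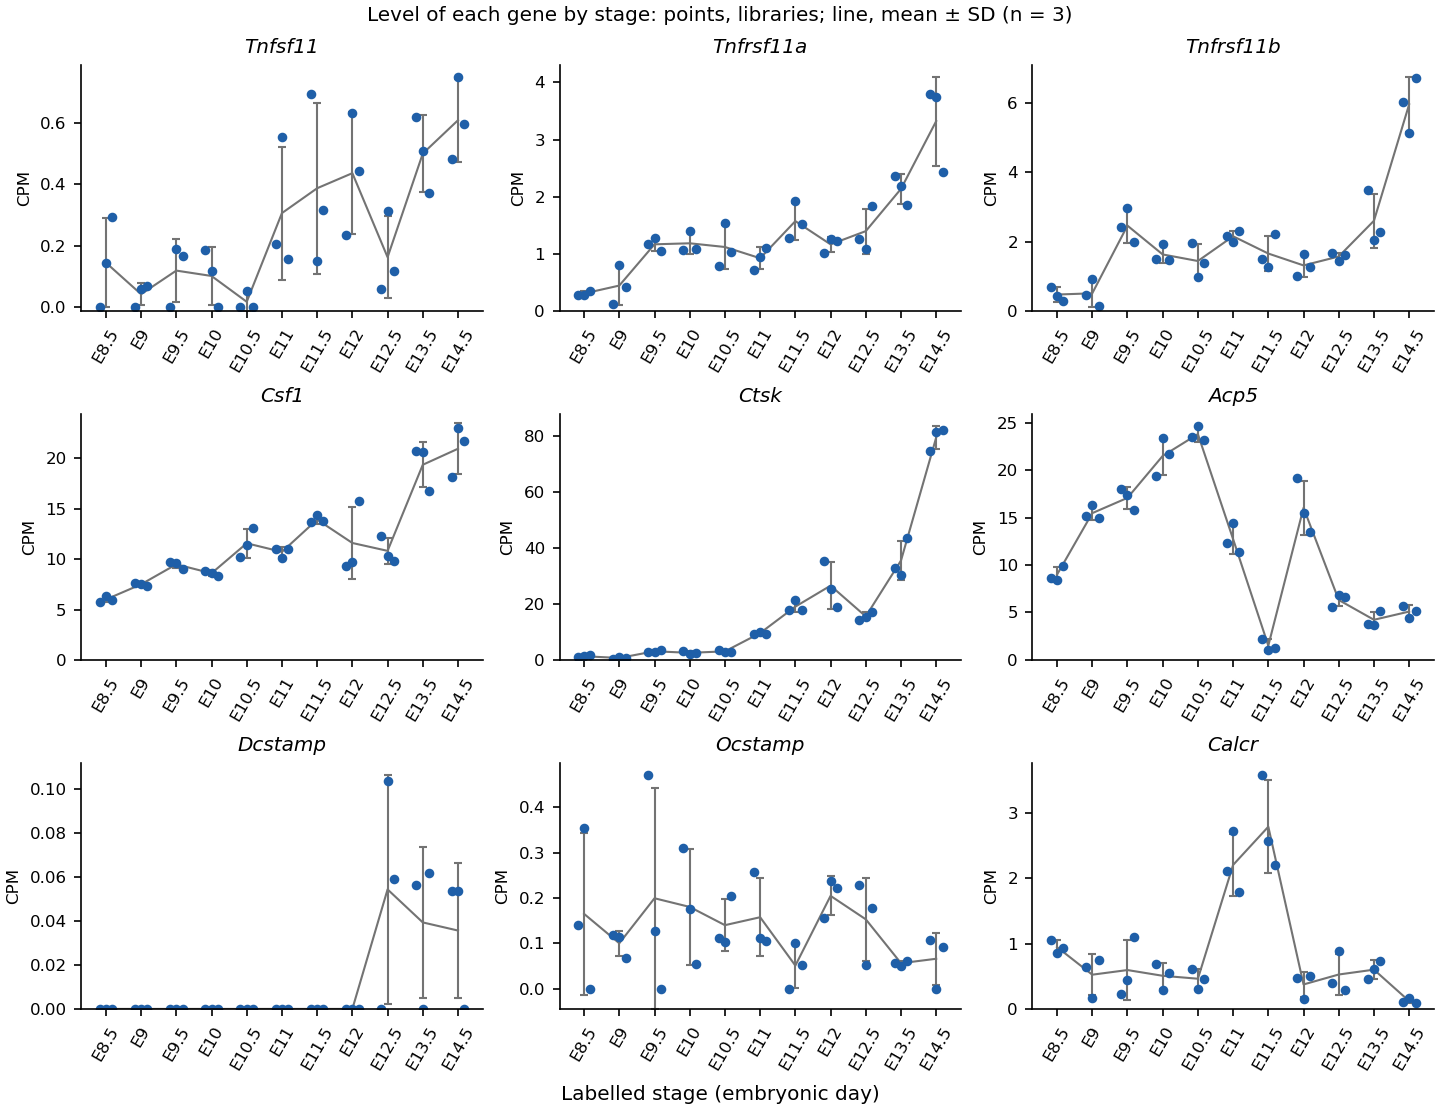
Level of the 9 genes in CPM (vertical axes, each with its own scale) at the 11 labelled stages (horizontal axes); points are libraries and lines join stage means with their SD (n = 3). Ctsk climbs to 79.6 CPM at E14.5, Acp5 peaks at 23.8 CPM at E10.5, and Dcstamp and Ocstamp stay below 0.5 CPM in every library.

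**Figure D2:**
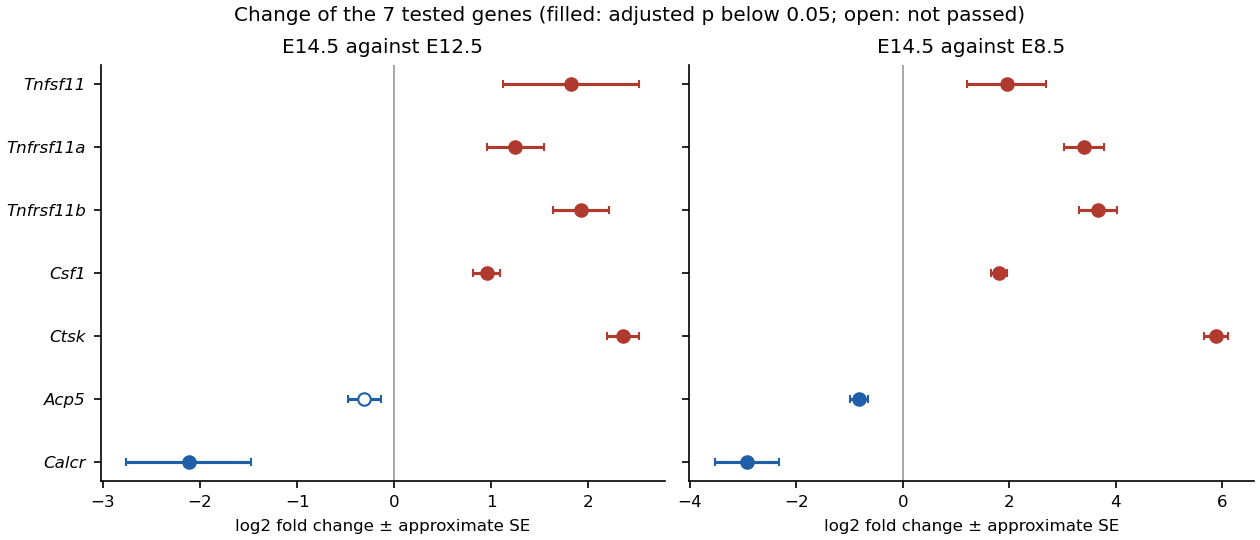
Log2 fold change (horizontal axes) of the 7 tested genes at E14.5 against E12.5 (left) and against E8.5 (right), with approximate standard errors. Filled points passed at an adjusted p below 0.05; Ctsk had the highest value in both panels (2.35 and 5.89), and Acp5 at E14.5 against E12.5 did not pass.

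Tnfsf11 (ENSMUSG00000022015, chr14:78277445-78308043 on the minus strand of GRCm38), the gene of RANK ligand itself, was close to the limit of detection throughout. It had 150 counts in all 33 libraries together, between 0 and 14 per library, and none in 6 libraries. The E14.5 libraries held 9, 14 and 13 counts (0.481, 0.750 and 0.595 CPM), the E12.5 libraries 1, 6 and 2 counts (0.0574, 0.312 and 0.119 CPM), and the E8.5 libraries 0, 2 and 5 counts (0, 0.142 and 0.292 CPM). All E14.5 libraries lay above all libraries of both earlier stages. The E13.5 libraries, with 0.620, 0.510 and 0.371 CPM, overlapped E14.5.

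On the log2 scale Tnfsf11 was 1.95 ± 0.74 higher at E14.5 than at E8.5 (edgeR adjusted p = 0.0194) and 1.82 ± 0.70 higher than at E12.5 (adjusted p = 0.0293). Neither call survived every change of library. Against E8.5 it was lost without E8.5 library a (1.43, adjusted p = 0.0944), E8.5 library b (1.903, 0.0517) or E14.5 library b (1.78, 0.0577), was 2.98 without E8.5 library c, and was also lost with a trend on gene length removed (1.53, 0.0651). Against E12.5 it was lost without E12.5 library a (1.44, 0.129) or c (1.65, 0.0938) or E14.5 library b (1.65, 0.0881) or c (1.84, 0.0558), and was 2.695 without E12.5 library b. Ordered by mean, the stages ran from E10.5, with 1 count in 3 libraries, to E14.5, and no pair of neighbours in that order was free of overlap. Of the single steps between stages, Tnfsf11 passed at E11 against E10.5 alone (3.65 ± 1.1, adjusted p = 0.0114), which rests on 17 counts against 1. That ratio was 17.1 with an exact 95% interval of 2.68 to 714, which covers counting error only.

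The 3 genes whose course was most like that of Tnfsf11 over the 33 libraries were Lypd3 (r = 0.81), Gjb6 (r = 0.80) and Krt5 (r = 0.80), the last a keratin of basal epidermis. These were taken from 12802 genes reaching 5 CPM in some stage; the correlation describes libraries that share stage and depth. The epidermis markers, 7 genes, summed to 1189 ± 89 CPM at E14.5, 62.8 ± 4.8 CPM at E12.5 and 20.7 ± 0.6 CPM at E8.5. Over the libraries, log2 Tnfsf11 had r = 0.77 with that sum, 0.74 with the summed osteoblast markers, 0.74 with skeletal muscle markers and 0.72 with fibroblast markers. The part of any of these tissues in the Tnfsf11 counts was not tested.

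Csf1 (ENSMUSG00000014599, chr3:107741048-107760469, minus strand), the survival factor, was measured with far more reads than Tnfsf11, between 82 and 474 counts per library. Its level was 18.1, 23.0 and 21.7 CPM in the E14.5 libraries, against 12.3, 10.3 and 9.85 CPM at E12.5 and 5.76, 6.32 and 5.90 CPM at E8.5. The groups did not overlap. Csf1 was 1.81 ± 0.15 higher on the log2 scale at E14.5 than at E8.5 (edgeR adjusted p = 4.75e-12) and 0.95 ± 0.14 higher than at E12.5 (adjusted p = 9.32e-07).

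Most of the later gain in Csf1 fell in 1 step. At E13.5 it was at 19.4 ± 2.2 CPM against 10.8 ± 1.3 CPM at E12.5 (SD, n = 3 each), a log2 difference of 0.84 ± 0.14 (adjusted p = 1.01e-05). In the order of stage means, E13.5 was clear of E11.5 below it (13.9 ± 0.4 CPM) but not of E14.5 above it. Already at E10.5 the level was 11.6 ± 1.5 CPM, 0.95 ± 0.15 above E8.5 on the log2 scale (adjusted p = 5.58e-06). The genes most like Csf1 were the collagen crosslinking enzyme gene Lox (r = 0.95), the bone collagen gene Col1a1 (r = 0.94) and Fndc1 (r = 0.94). Summed osteoblast markers, a list that also holds Col1a1, stood at 2499 ± 104 CPM at E14.5, 295.8 ± 29 CPM at E12.5 and 64.9 ± 3.8 CPM at E8.5, with r = 0.93 to Csf1 over the 33 libraries.

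Tnfrsf11a (ENSMUSG00000026321, chr1:105780718-105847981, plus strand), which encodes RANK, was found in every library, with 2 to 71 counts. It reached 3.796, 3.75 and 2.43 CPM in the E14.5 libraries, against 1.26, 1.09 and 1.84 CPM at E12.5 and 0.281, 0.284 and 0.351 CPM at E8.5. E14.5 was the highest stage and did not overlap E13.5 (2.37, 2.19 and 1.85 CPM). The log2 difference was 3.398 ± 0.38 at E14.5 against E8.5 (edgeR adjusted p = 2.6e-09) and 1.25 ± 0.29 against E12.5 (adjusted p = 0.000546).

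The first gain in Tnfrsf11a came at E9.5, with 1.17 ± 0.11 CPM against 0.444 ± 0.34 CPM at E9 (log2 difference 1.36 ± 0.39, adjusted p = 0.0103). Macrophage markers moved at the same step, 14 of 14 higher at E9.5, where 11.1% of all genes were higher, with a summed level of 106.0 ± 2.7 CPM at E9.5 against 11.52 ± 1.1 CPM at E9. Among those markers only Adgre1 was at 0 counts at E9. Since the E9.5 libraries stood apart, E10 was also set against E9, a comparison chosen after seeing the data, and gave 1.39 ± 0.39 for Tnfrsf11a (adjusted p = 0.00413). Between E9.5 and E12.5 the stage means stayed between 0.923 and 1.57 CPM, and no step passed.

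Over the 33 libraries Tnfrsf11a had r = 0.85 with the summed macrophage markers, which stood at 367.5 ± 7.7 CPM at E14.5, 177.6 ± 4.0 CPM at E12.5 and 14.52 ± 0.55 CPM at E8.5. It was nearly as close to the fibroblast markers (r = 0.81) and the osteoblast markers (r = 0.80), and by Spearman's rho both stood above the macrophage markers (0.823 and 0.816, against 0.756). At E8.5 the macrophage markers Tyrobp and C1qa were at 0 counts. The genes most like it were the matrix genes Spon2 (r = 0.91) and Fbln5 (r = 0.90) and the ribonuclease gene Rnase4 (r = 0.89). Per kilobase of exon, Tnfrsf11a was 14.8-fold below the CSF1 receptor gene Csf1r at E14.5 (log2 ratio -3.89 ± 0.36), 21.6-fold below it at E12.5 and 1.67-fold below it at E8.5. The E8.5 ratio (-0.74 ± 1.0 on the log2 scale) rests on 14 Tnfrsf11a counts over the stage. Its lowest means were at E12 (-4.78 ± 0.20) and E11 (-4.73 ± 0.24). What part the number of macrophages plays in the Tnfrsf11a level was not tested.

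Tnfrsf11b (ENSMUSG00000063727, chr15:54250619-54278484, minus strand), the gene of the decoy osteoprotegerin, was higher at E14.5 than at any other stage. Its level was 6.04, 5.14 and 6.73 CPM at E14.5, against 1.66, 1.45 and 1.60 CPM at E12.5 and 0.702, 0.426 and 0.292 CPM at E8.5. No E14.5 library overlapped the next stage in the order, E13.5, at 3.50, 2.04 and 2.29 CPM. The log2 difference was 3.67 ± 0.35 at E14.5 against E8.5 (edgeR adjusted p = 1.47e-10) and 1.92 ± 0.29 against E12.5 (adjusted p = 1.26e-06). Tnfrsf11b also passed in the last single steps, by 0.73 ± 0.30 at E13.5 against E12.5 (adjusted p = 0.0444) and by 1.20 ± 0.27 at E14.5 against E13.5 (adjusted p = 0.000479).

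An earlier gain was seen at E9.5, with 2.46 ± 0.50 CPM against 0.509 ± 0.39 CPM at E9 (log2 difference 2.21 ± 0.37, adjusted p = 4.09e-05). That step coincided with the rise in the summed fibroblast markers that set the E9.5 libraries apart. With E10 in place of E9.5 the difference from E9 was 1.62 ± 0.38 (adjusted p = 0.000952), where 44.6% of all genes were called. The fibroblast sum was 42.8 ± 1.9 CPM at E10 and 23.6 ± 2.9 CPM at E9. What part fibroblasts play in the Tnfrsf11b level was not tested. Tnfrsf11a and Tnfrsf11b had r = 0.81 with each other over the 33 libraries. The genes most like Tnfrsf11b were Moxd1 (r = 0.88), Cavin2 (r = 0.88) and Ang (r = 0.87).

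Ligand and decoy were compared within each library as counts per exonic length, after 0.5 count was added to each gene. At E14.5 the log2 ratio of Tnfsf11 to Tnfrsf11b was -3.25, -2.40 and -3.12, a mean of -2.92 ± 0.45 (SD, n = 3), which places the decoy transcript 7.57-fold above the ligand transcript. At E13.5 the ratio was -1.97 ± 0.31, at E12.5 -2.96 ± 1.1, and at E12 -1.25 ± 0.32, the stage where the ligand came closest to the decoy. All stage means were below 0. Per exonic length the ligand exceeded the decoy in 1 library of 33, at E8.5 (0.33). There 5 counts were read of each gene, so that value reflects their exonic lengths alone. At E9.5 and E10.5 the decoy was 18.04-fold and 29.4-fold above the ligand, but those means rest on 6 and 1 ligand counts. The ratio was not tested, and the early values are set by the count added.

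**Figure D3:**
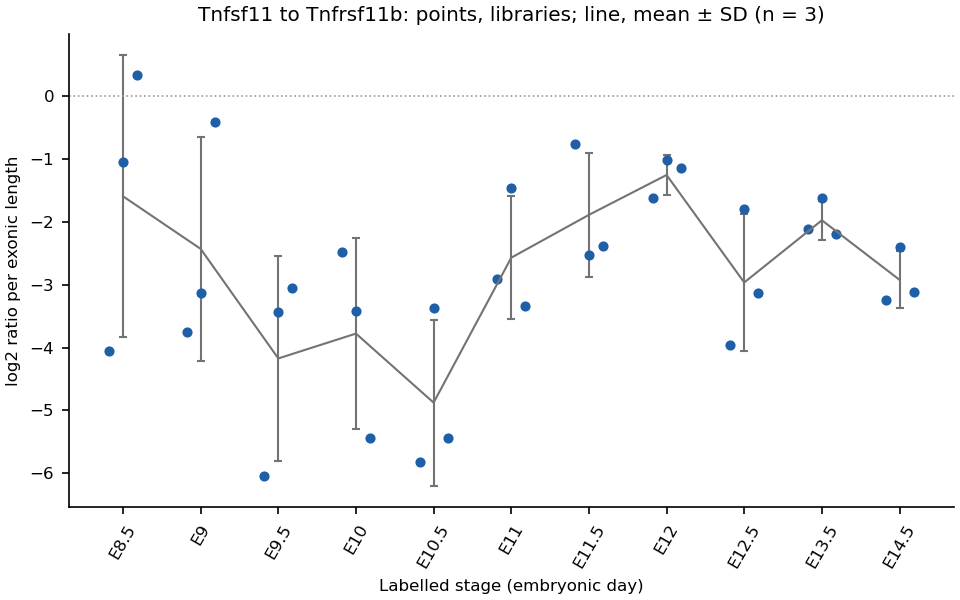
Log2 ratio of Tnfsf11 to Tnfrsf11b counts per exonic length (vertical axis) by labelled stage (horizontal axis); points are libraries, the line joins means with their SD (n = 3), and the dotted line marks equal levels. Every stage mean lies below the dotted line, at -2.92 for E14.5.

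The fusion genes were barely read at any stage. Dcstamp (ENSMUSG00000022303, chr15:39745930-39760938, plus strand) had 7 counts in the whole table. All 24 libraries of E8.5 to E12 had 0 counts, and the counts were 0, 2 and 1 at E12.5, 1, 0 and 1 at E13.5, and 1, 1 and 0 at E14.5. The 2 counts at E14.5 correspond to 0.0357 CPM, with an exact 95% Poisson interval of 0.00409 to 0.122 CPM, and the 0 counts at E8.5 have an exact upper limit of 0.0812 CPM. These limits cover counting error only. All 7 counts lay in 6 of the 9 libraries of E12.5 to E14.5.

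Ocstamp (ENSMUSG00000027670, chr2:165393760-165400405, minus strand) had 75 counts in all, between 0 and 8 per library. It was read 2, 0 and 2 times at E14.5, 4, 1 and 3 times at E12.5, and 2, 5 and 0 times at E8.5, so the groups overlapped. Its highest stage mean was 0.205 ± 0.043 CPM, at E12. Fitted with no filter on low counts, Dcstamp and Ocstamp did not pass in any of the 4 main comparisons (edgeR adjusted p between 0.369 and 1). A further osteoclast fusion gene, Atp6v0d2, which encodes a proton pump subunit, also failed the filter. It had 4 counts over the E14.5 libraries, 6 at E13.5, and 0 at E8.5, at E9 and at each stage from E11 to E12.5. Atp6v0d2 was also read at E9.5, E10 and E10.5, so its reads were not confined to the last stages.

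Ctsk (ENSMUSG00000028111, chr3:95499256-95509362, plus strand), the gene of the main collagenase of osteoclasts, had the widest range of the 7 tested genes, 114.6-fold between the means of its highest stage, E14.5, and its lowest, E9. Its level was 74.8, 81.6 and 82.3 CPM in the E14.5 libraries, against 14.2, 15.4 and 17.1 CPM at E12.5 and 0.913, 1.42 and 1.64 CPM at E8.5. The 3 stages did not overlap, and E14.5 was also clear of E13.5 (32.8, 30.4 and 43.5 CPM). The log2 difference was 5.89 ± 0.23 at E14.5 against E8.5, a 59.2-fold change (edgeR adjusted p = 8.15e-20), and 2.35 ± 0.17 against E12.5 (adjusted p = 6.57e-13). Per kilobase of exon at E14.5, Ctsk stood at 52.6 CPM, where Csf1 had 3.97, Acp5 2.51, Tnfrsf11b 2.12, Tnfrsf11a 0.555 and Tnfsf11 0.272 CPM.

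Ctsk passed in 7 of the 10 steps between neighbouring stages, 6 times upwards and once downwards. The steps up were at E9.5 (2.15 ± 0.31), E11 (1.65 ± 0.20), E11.5 (0.99 ± 0.17), E12 (0.47 ± 0.17), E13.5 (1.19 ± 0.17) and E14.5 (1.16 ± 0.16), each against the stage before it on the log2 scale, with adjusted p between 1.47e-07 and 0.0138. The step down was at E12.5, with 15.6 ± 1.4 CPM against 26.6 ± 8.5 CPM at E12 (-0.76 ± 0.17, adjusted p = 0.000263), and the 3 E12 libraries ran from 18.8 to 35.6 CPM. The share of all genes called in either direction was 20.2% at E9, 22.8% at E9.5, 26.7% at E10 and 8.46% at E10.5. It was 36.5% at E11, 23% at E11.5, 68.8% at E12, 63% at E12.5, 53.1% at E13.5 and 50.9% at E14.5, so the steps around E12 moved most of the table. With E10 in place of E9.5 the first step was 1.86 (adjusted p = 1.96e-05, 44.6% of all genes called), and with E12.5 in place of E11.5 the difference to E11 was 0.70 (adjusted p = 0.00591, 6.59% of all genes higher and 6.94% lower).

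The sums of several marker lists moved with this course. Over the 33 libraries Ctsk had r = 0.93 with the summed osteoblast markers, 0.91 with the fibroblast markers, 0.90 with the macrophage markers, 0.885 with the epidermis markers and 0.878 with the skeletal muscle markers. With the other lists r lay between -0.81 for the hypertrophic cartilage list and 0.62 for neurons. The cartilage list also holds the general cartilage genes Col2a1 and Acan. It summed to 434.5 ± 13 CPM already at E8.5, so the sum is no measure of hypertrophic cartilage alone. By Spearman's rho the macrophage markers stood first (0.967), then the osteoblast (0.959), epidermis (0.907), fibroblast (0.869) and skeletal muscle markers (0.828). Fibroblast markers summed to 1950 ± 99 CPM at E14.5, 216.9 ± 16 CPM at E12.5 and 23.6 ± 3.5 CPM at E8.5. The 3 genes most like Ctsk were Cdo1 (r = 0.98), Emp3 (r = 0.97) and the collagen gene Col8a1 (r = 0.97). Ctsk is also known from fibroblasts and periosteal cells, and which cells its reads came from was not tested.

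Acp5 (ENSMUSG00000001348, chr9:22126727-22135711, minus strand), the other effector gene, followed a different course and was highest at mid-gestation. It had 5.72, 4.44 and 5.13 CPM in the E14.5 libraries, against 5.56, 6.80 and 6.58 CPM at E12.5 and 8.64, 8.45 and 9.88 CPM at E8.5. The E14.5 and E12.5 libraries overlapped, and E8.5 lay above both. At E14.5 against E8.5 the log2 difference was -0.82 ± 0.17 (edgeR adjusted p = 6.8e-05), which became -0.39 when libraries were scaled by their totals alone (adjusted p = 0.0251). Against E12.5 the difference at E14.5 was -0.31 ± 0.17 (adjusted p = 0.126). Ctsk and Acp5 had r = -0.57 over the 33 libraries.

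The level of Acp5 was 23.8 ± 0.8 CPM at E10.5, against 8.99 ± 0.78 CPM at E8.5 (log2 difference 1.40 ± 0.15, adjusted p = 7.86e-09). At E11 it fell by 0.90 on the log2 scale (adjusted p = 1.33e-05). At E11.5 it fell by a further 3.09 (adjusted p = 3.71e-13) to 1.51 ± 0.66 CPM, its lowest stage. At E12 it was back at 16.03 ± 2.9 CPM, a step of 3.42 ± 0.19 (adjusted p = 2.97e-14), and it then fell again at E12.5 (-1.34 ± 0.16) and E13.5 (-0.59 ± 0.18). Since the E11.5 libraries stood apart, E12.5 was also set against E11, and the difference was then -1.01 (adjusted p = 2.65e-05).

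Genes of red blood cells took the same course. Among the genes most like Acp5 out of 12801 candidates were Hemgn (r = 0.93), a gene of the erythroid lineage, and Tspan32 (r = 0.91). Over the 33 libraries Acp5 had r = 0.95 with the 6 summed erythroid markers, a list that holds Hemgn, and r = -0.32 with the summed macrophage markers. The erythroid markers summed to 128.0 ± 3.7 CPM at E10.5, 29.4 ± 2.3 CPM at E11.5, 111.8 ± 8.6 CPM at E12, 51.4 ± 2.9 CPM at E12.5 and 43.8 ± 1.9 CPM at E14.5. All 6 were lower at E11.5 than at E11 and higher at E12 than at E11.5, where 12.3% and 33.3% of all genes were called in those directions. The part of red cells in the Acp5 level was not tested. Acp5 shares 137 exonic bases with 6530413G14Rik on the opposite strand, and with the strand setting of the counting unknown, the reads of that stretch cannot be assigned to either gene.

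**Figure D4:**
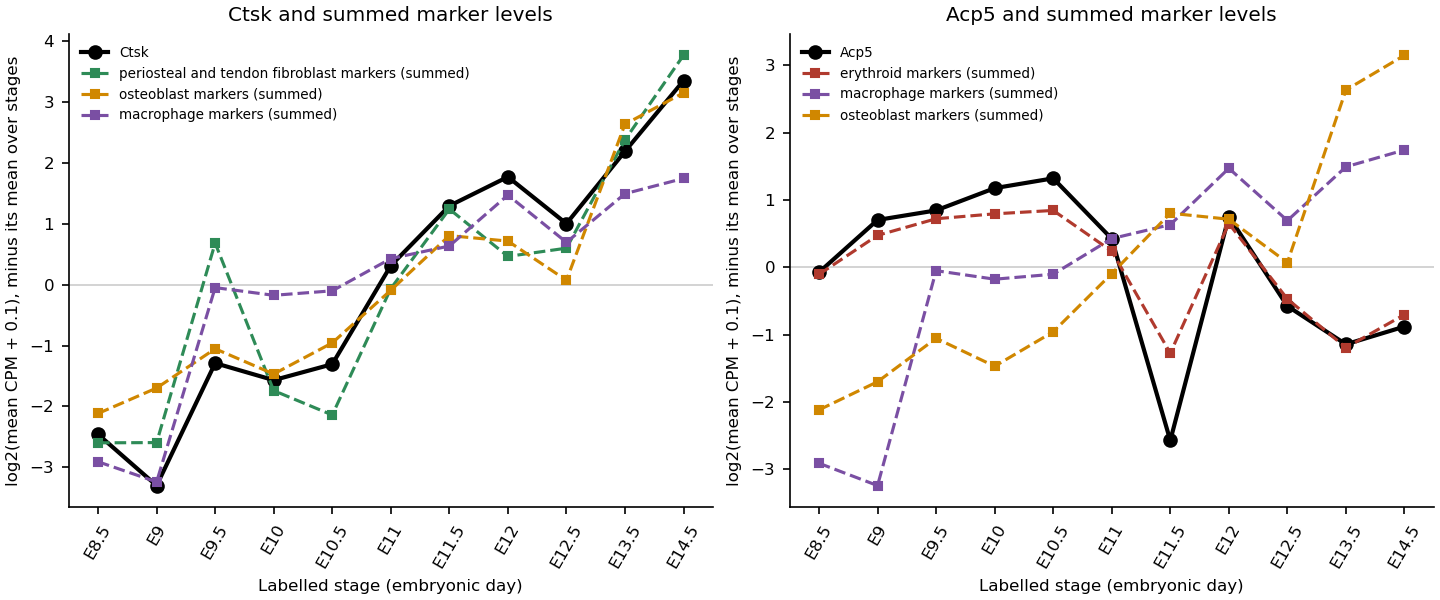
Stage means of Ctsk (left) and Acp5 (right) beside summed marker levels, as log2(mean CPM + 0.1) minus each line's own mean over the 11 stages (vertical axes). Acp5 and the erythroid markers share their low at E11.5 (1.51 and 29.4 CPM) and their return at E12 (16.03 and 111.8 CPM), while Ctsk and the fibroblast, osteoblast and macrophage markers are highest at E14.5.

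The start regions of the effector genes are shown because Ctsk and Acp5 differed in course over the stages and because Acp5 has several annotated starts. Windows of 250 bases before to 50 bases after the start, from RefSeq on GRCm38.p6, were at hand for 6 of the 9 genes. They were searched on both strands for TGGAAA (the core bound by NFAT factors), TGANTCA (AP-1), CATGTG and CACGTG (E-boxes bound by MITF), GAGGAA (the core bound by PU.1), and AGATAA and TGATAA (bound by GATA factors). These motifs were chosen with the courses of the genes known. Capitals in the sequences below mark the matches, on the strand of the gene, 5′ to 3′. The first is chr3:95498960-95499259 on the plus strand, the second chr9:22135697-22135996 on the minus strand and the last chr9:22130549-22130848 on the minus strand.
Ctsk: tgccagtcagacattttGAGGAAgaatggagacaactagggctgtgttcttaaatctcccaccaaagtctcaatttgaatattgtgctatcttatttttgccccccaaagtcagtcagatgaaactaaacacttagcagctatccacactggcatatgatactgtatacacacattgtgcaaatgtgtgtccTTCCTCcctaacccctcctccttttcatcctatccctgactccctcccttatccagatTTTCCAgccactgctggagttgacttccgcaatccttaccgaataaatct
Acp5, upstream start: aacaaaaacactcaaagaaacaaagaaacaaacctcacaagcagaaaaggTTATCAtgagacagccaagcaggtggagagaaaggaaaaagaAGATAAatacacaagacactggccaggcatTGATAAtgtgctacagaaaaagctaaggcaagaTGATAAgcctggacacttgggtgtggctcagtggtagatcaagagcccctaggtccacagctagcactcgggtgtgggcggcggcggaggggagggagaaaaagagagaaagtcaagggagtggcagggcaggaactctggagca
Acp5, downstream start: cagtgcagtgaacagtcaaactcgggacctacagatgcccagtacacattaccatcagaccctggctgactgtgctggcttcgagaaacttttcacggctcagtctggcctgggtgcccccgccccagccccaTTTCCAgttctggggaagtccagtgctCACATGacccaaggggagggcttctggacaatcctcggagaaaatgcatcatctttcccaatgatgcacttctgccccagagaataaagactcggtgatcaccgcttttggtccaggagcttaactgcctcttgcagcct

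The Ctsk window held 1 TGGAAA, read as TTTCCA at the start site itself, and 2 GAGGAA. These are letters found in 21.4% and 28.3% of 32851 promoter windows of the same length. The upstream Acp5 window held 4 matches to the GATA letters, 1 AGATAA and 3 TGATAA, at 95 to 200 bases before the start. Either of them occurred at least once in 18.6% of all windows, and 4 or more times in 22 windows (0.067%). The cutoff of 4 is the count of this Acp5 window itself, so the second share is no test of it. The downstream Acp5 window held 1 TGGAAA and 1 CATGTG, the second found in 14.2% of windows, and no GATA letters. A window at a start between these, chr9:22131816-22132115, held none of the motifs, and neither did the windows of Tnfsf11, Csf1, Tnfrsf11a and Calcr. A match is a description of the letters and not a bound site, and the count table does not separate the starts of a gene.

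Calcr (ENSMUSG00000023964, chr6:3685680-3764714, minus strand) was at its lowest at E14.5. Its libraries held 2, 3 and 2 counts at E14.5 (0.107, 0.161 and 0.0915 CPM), against 7, 17 and 5 counts at E12.5 (0.402, 0.883 and 0.297 CPM) and 15, 12 and 16 counts at E8.5 (1.05, 0.852 and 0.935 CPM). The E14.5 libraries lay below all libraries of both other stages. The log2 difference was -2.93 ± 0.60 at E14.5 against E8.5 (edgeR adjusted p = 7.97e-05) and -2.11 ± 0.64 against E12.5 (adjusted p = 0.00641). Without E12.5 library b the second was -1.51 (adjusted p = 0.0912). Against E13.5 it was -2.27 ± 0.63 (adjusted p = 0.00372), from 7 counts against 32. Summed neuron markers stood at 590.3 ± 8.7 CPM at E14.5, 1954 ± 71 CPM at E13.5 and 1647 ± 2.1 CPM at E12.5. At E8.5, where Calcr was higher, they summed to 157.0 ± 1.8 CPM.

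Calcr peaked at 2 neighbouring stages, E11 (2.21 ± 0.47 CPM) and E11.5 (2.79 ± 0.71 CPM), which did not overlap any other stage. The step up at E11 was 2.24 ± 0.43 on the log2 scale (adjusted p = 0.000131) and the step down at E12 was -2.83 ± 0.46 (adjusted p = 4e-06). Summed neuron markers were also highest at these stages, at 2666 ± 25 CPM at E11 and 2804 ± 33 CPM at E11.5, and stood at 2322 ± 272 CPM at E12, where Calcr was at 0.375 ± 0.19 CPM. Of these 8 markers, 5 were lower at E12 than at E11.5, 1 was higher and 2 did not pass (median -0.86), where 35.6% of all genes were lower and 33.3% higher. The part of neurons in the Calcr level was not tested. Over the 33 libraries r was 0.30 with that sum and -0.14 with the macrophage markers. The genes most like Calcr were Inpp5f (r = 0.81), Plxnc1 (r = 0.79) and the neural adhesion gene Nrcam (r = 0.77).

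The other main comparisons were those of E12.5 against E10.5 and of E10.5 against E8.5. At E12.5 against E10.5, 1 of the 7 tested genes was higher, Ctsk (2.35 ± 0.20, adjusted p = 6.91e-11), and 1 was lower, Acp5 (-1.91 ± 0.16, adjusted p = 3.7e-11), where 18.8% of all genes were higher and 17.2% lower. At E10.5 against E8.5, 5 were higher (Tnfrsf11a, Tnfrsf11b, Csf1, Ctsk and Acp5), where 28.2% of all genes were higher and 21.3% lower. Tnfsf11 and Calcr did not pass there, at -2.69 ± 1.3 (adjusted p = 0.0885) and -1.03 ± 0.48 (adjusted p = 0.0768). Over all 11 stages together, all 7 tested genes passed the test for any change, as did 95.3% of all genes.

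Other genes of the pathway were followed in 8 lists, drawn up with earlier results of these data known. In the CSF1 receptor axis, 7 of 8 genes were tested, and at E14.5 against E12.5 there were 6 higher and 1 lower, with a median log2 fold change of 1.22, where the median of all genes was -0.03. In that comparison 25.3% of all genes were higher and 28.6% lower. Csf1r itself was at 46.8 ± 1.5 CPM at E14.5, against 29.0 ± 2.5 CPM at E12.5 (0.69 ± 0.12, adjusted p = 2.34e-05) and 0.593 ± 0.41 CPM at E8.5 (6.33 ± 0.20, adjusted p = 8.55e-22). Il34, the second ligand of CSF1R, was at 2.63 ± 0.54 CPM at E14.5, against 0.287 ± 0.26 CPM at E12.5 (3.12 ± 0.47, adjusted p = 1.79e-06). Spi1, the gene of the myeloid factor PU.1, was 1.42 ± 0.23 higher. The adaptor gene Grb2 was lower (-0.48 ± 0.07), and Csf2, with at most 1 count in a stage, was not tested.

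Receptors and chemokines that bring precursors to bone changed in the same direction for the most part. Of 12 recruitment genes, 8 were higher at E14.5 than at E12.5, 3 lower and 1 did not pass, with a median of 0.62. Of all genes, 25.3% were higher and 28.6% lower in this comparison. Ccr2, a monocyte chemokine receptor, was at 7.43 ± 0.57 CPM at E14.5, against 0.643 ± 0.30 CPM at E12.5 (3.50 ± 0.35, adjusted p = 2.99e-09), and Ccl2, a ligand of that receptor, was 2.10 ± 0.40 higher. At E8.5 Ccr2 and Ccr1 had 0 counts, so that E14.5 was at least 112-fold and 86.2-fold higher, with 3 counts over the stage taken as the floor. The ITAM adaptors and their receptors, which costimulate RANK signalling in macrophages, had 4 of 7 tested genes higher at E14.5 than at E12.5, 1 lower and 2 not passing, among them Fcgr3 (1.54 ± 0.21), Tyrobp (1.31 ± 0.23) and Trem2 (1.17 ± 0.25). Macrophage markers moved beside these lists: 12 of 14 were higher at E14.5 than at E12.5 and 2 did not pass. The same shares of all genes stand beside the ITAM genes and these markers. Csf1r and Tyrobp stand in that list too, and its part in these changes was not tested.

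Within the signalling pathway below RANK, genes were called in both directions, in shares near those of all genes. Of 20 genes, 7 were higher at E14.5 than at E12.5, 6 lower and 7 did not pass (median 0.12), where 25.3% of all genes were higher and 28.6% lower. Against E8.5 there were 8 higher, 8 lower and 4 not passing (median 0.17, where that of all genes was 0.16), beside 41.1% and 33.5% of all genes. Nfatc1, the master transcription factor of osteoclasts, was among the risers: 17.6 ± 0.6 CPM at E14.5, against 6.39 ± 1.4 CPM at E12.5 (1.46 ± 0.21, adjusted p = 7.14e-07) and 4.40 ± 0.49 CPM at E8.5 (1.99 ± 0.22, adjusted p = 2.74e-09). Nfatc1 is also active in other lineages, such as endocardium. Relb and Tec rose with it against E12.5, by 1.59 ± 0.26 and 1.16 ± 0.15. Plcg2 and Fos fell at E14.5 against E8.5, to 5.43 ± 0.79 CPM against 66.9 ± 5.2 CPM and to 5.41 ± 0.68 CPM against 27.8 ± 1.1 CPM. Of 8 tested transcription factors of the lineage, 4 were higher at E14.5 than at E12.5, 2 lower and 2 did not pass, with Fosl2 (1.78 ± 0.19) and Prdm1 (1.19 ± 0.23) among the higher ones.

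Of the machinery by which osteoclasts attach to bone and acidify it, more genes were lower than higher against E12.5, and equal numbers against E8.5. At E14.5 against E12.5, 3 of 14 tested genes were higher, 8 lower and 3 did not pass (median -0.31), where 25.3% of all genes were higher and 28.6% lower. Against E8.5 there were 6 higher, 6 lower and 2 not passing, where 41.1% and 33.5% of all genes were called. Higher at E14.5 were Tcirg1, a subunit of the proton pump, at 91.8 ± 6.8 CPM against 48.7 ± 5.2 CPM at E12.5 (0.92 ± 0.11, adjusted p = 1.3e-08), Mmp9, a matrix protease, at 4.39 ± 0.28 CPM against 1.61 ± 0.33 CPM (1.43 ± 0.31, adjusted p = 0.000207), and the integrin gene Itgav (0.38 ± 0.16). Lower were Car2, the carbonic anhydrase that supplies protons, at 14.6 ± 0.6 CPM against 44.1 ± 2.2 CPM (-1.60 ± 0.12, adjusted p = 3.08e-12), Ostm1 (-0.83 ± 0.10), the chloride channel gene Clcn7 (-0.30 ± 0.10) and the exchanger gene Slc9b2 (-1.14 ± 0.22). Itgb3, the integrin subunit typical of osteoclasts, was at 13.7 ± 2.0 CPM at E14.5 and 11.7 ± 0.9 CPM at E12.5 (0.23 ± 0.13, adjusted p = 0.146). Car2 is also made by red cells, and 4 of the 6 erythroid markers were lower at E14.5 than at E12.5. The part of red cells in the Car2 level was not tested. Several genes of this list also serve lysosomes in other cells.

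Regulators on either side of RANK ligand were mostly higher. Of 14 tested genes that raise or relay the signal for RANK ligand in stromal cells, 11 were higher at E14.5 than at E12.5, 2 lower and 1 did not pass (median 1.17), with Il1r1, an interleukin-1 receptor (2.56 ± 0.21), Twist2 (2.32 ± 0.18) and the parathyroid hormone receptor gene Pth1r (1.73 ± 0.12) changing most among those of at least 1 CPM. Pth1r stood at 115 ± 9 CPM at E14.5 and 34.8 ± 3.4 CPM at E12.5. Of 12 genes that restrain osteoclast formation, 10 were higher at E14.5 than at E12.5 and 2 did not pass (median 0.74). Bcl6 (1.61 ± 0.21), Lilrb4a (1.37 ± 0.48) and the interferon-gamma receptor gene Ifngr1 (1.14 ± 0.12) led them. These lists were counted and not tested as sets, and the share of all genes called higher in this comparison, 25.3%, is the measure beside them.

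**Figure D5:**
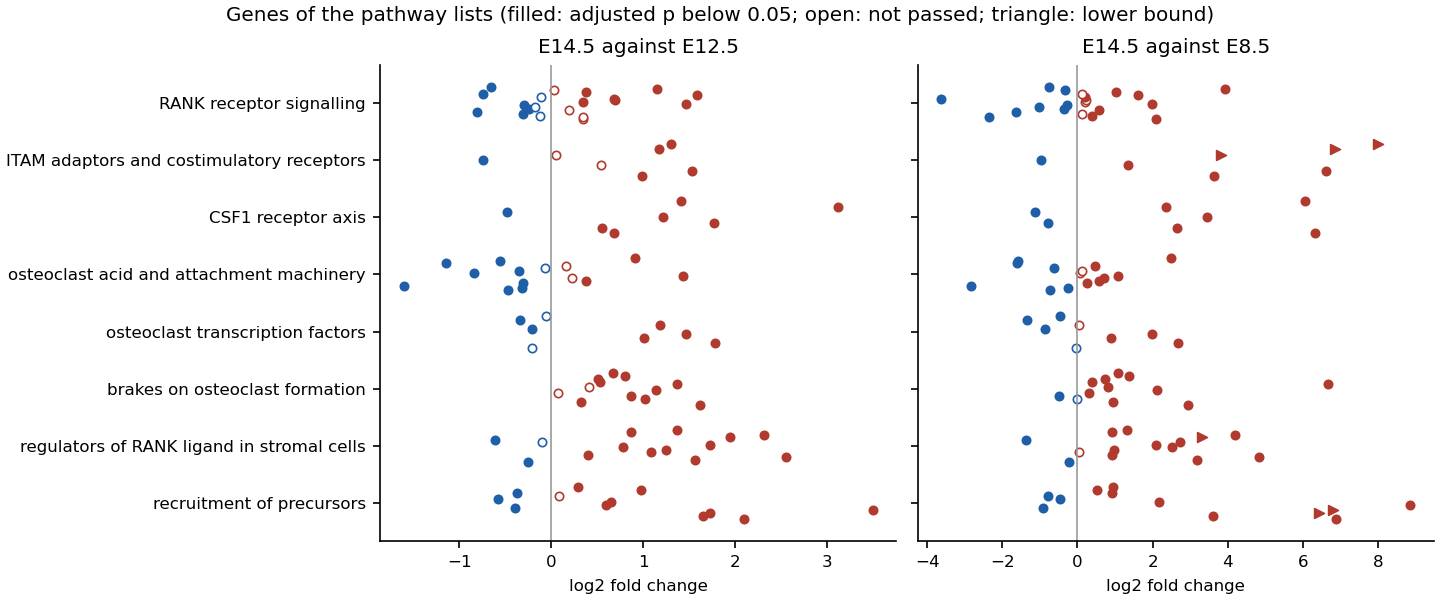
Log2 fold change (horizontal axes) of each tested gene in the 8 pathway lists (rows) at E14.5 against E12.5 (left) and against E8.5 (right). Filled points passed, open points did not, and triangles are lower bounds against a stage with 0 counts; the restraining genes and the regulators of RANK ligand lie mostly to the right of 0, with medians of 0.74 and 1.17 in the left panel, and the acid and attachment genes to both sides.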

How the data were processed

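The labels name polyA RNA of the mouse frontal bone at 11 stages, with 3 libraries each. The deposited table holds raw read counts per gene, not normalized, per the file headers and the values. Per the submitters' processing notes, cutadapt 1.9.1, HISAT2 2.0.1, HTSeq 0.6.1 and the build GRCm38 were used. Neither annotation release nor strand setting is stated there. Stages were read from the column names, whose final letter (a, b or c) has no match in the labels' replicate numbers.

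The main test was the quasi-likelihood F-test of edgeR 4.0.16 (R 4.3.3). Its filterByExpr function left 20073 genes, TMM factors ran between 0.797 and 1.18, and all 33 libraries entered 1 model of stage means with 22 residual degrees of freedom and Benjamini-Hochberg adjustment within each comparison. CPM was computed from the counts; the correlations used log2 CPM with a prior count of 2. Standard errors were derived from fold change and F and are approximate. Libraries of 1 stage all differed from each other beyond sampling noise. Symbols came from GENCODE M21 (55141 of 55401 genes).

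The 9 genes, the lists and the comparisons were chosen with earlier results of these data known. All 9 genes are named; from each list the text takes up to 3 genes with the largest passing change in either of the 2 comparisons with E14.5 among those of at least 1 CPM, and any gene of the CSF1 receptor and acid and attachment lists. For likeness, it takes the 3 genes with the highest r among genes of at least 5 CPM in some stage, without predicted genes, clones and pseudogenes. A gene that this rule takes is not reported here. Alternatives were DESeq2 1.42.0 and its size factors, scaling by totals, no filter, a stricter filter, a block on the column letter, fits of fewer libraries, a length correction and each library left out in turn. Comparisons that replace E9.5 by E10 and E11.5 by E12.5 were chosen after seeing the data.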

Additional observations from a re-analysis of the deposited data

How the results depend on the processing

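Over 55 results, 761 recomputed values were compared with those reported: 744 were graded the same, 9 lost their call, 4 gained one and 4 changed sign. The fold change of a gene was graded the same if it kept direction and side of the threshold. Numbers of genes passing were graded by proportion, so they could move and still be graded the same. At E14.5 against E12.5, for example, 4 to 7 of the followed genes passed, against 6 reported. The ratio was graded the same within its SD at E14.5. The calls lost were those of Tnfsf11 and Calcr given with the results. No called value changed sign. The 4 that did were near 0 and uncalled, all at E12.5 against E10.5: Csf1 with totals alone (0.023), Tnfrsf11b without E10.5 library b (-0.087, in a range up to 0.41 with other libraries left out), and Calcr without E10.5 library b (-0.0036) or E12.5 library b (-0.39, in a range up to 0.49); the cause was not tested. Gained calls were Acp5 at E14.5 against E12.5 with the length trend removed (-0.47, adjusted p = 0.0106), Calcr at E10.5 against E8.5 with that trend removed (-1.25, 0.0281) or with only those libraries fitted (-1.06, 0.0362), and Tnfsf11 at E10.5 against E8.5 without E8.5 library a (-3.24, 0.0378). Scaling by totals moved the median of all genes at E14.5 against E8.5 to 0.59, and removing the length trend to -0.28, against 0.16 in the reported fit. Tnfsf11 had too few counts to be tested under the stricter filter and with only the libraries of the compared stages fitted, and Calcr in the second of these at E14.5 against E12.5 and at E12.5 against E10.5. At E14.5 against E12.5 the genes passing then numbered 5 of 6 tested and 4 of 5 tested, against 6 of 7 in the reported fit. In that comparison the regulators of RANK ligand called in either direction numbered 9 to 13 over the settings (13 reported). With a library left out they numbered 9 to 10. Ranges were 8 to 13 for acid and attachment (11), 10 to 14 for RANK signalling (13) and 4 to 7 for transcription factors (6). For restraining genes it was 9 to 12 (10) and for recruitment 9 to 11 (11). The CSF1 receptor axis (7) and ITAM genes (5) kept their numbers. The Tnfsf11 to Tnfrsf11b ratio at E14.5 was -2.87 with 1 count added, -2.98 with none, and -3.18 to -2.76 with a library left out.

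A replicate block on the column letter left the count of genes passing at 7 at E14.5 against E8.5 and 6 against E12.5. Libraries of the same letter had a mean r of -0.0084 in their deviations from stage means (-0.582 to 0.18 over 165 pairs of stages, 5 above 0.1). On average the letter marked no shared deviation, and batches that cut across the letters were not tested. Depth limits Tnfsf11, Calcr, Dcstamp and Ocstamp most.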
